A study of Mus musculus with 16 samples.

Results

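Sterol synthesis, uptake and efflux were followed through 32 named genes in mouse CD8+ T cells that had been held in 4 different media. The genes were listed by name, in 3 branches: 18 enzymes of the mevalonate and sterol pathway, 5 regulators of the SREBP transcription factors, and 9 genes of the LXR branch and of sterol transport. All 32 were found in the table of depth-normalized reads averaging 10 or more, among 12469 such genes of 17159 in that table. The cells were of the C57BL/6 strain, and the labels name no engineered allele. They had been activated for 2 days through CD3 and CD28 before the medium was changed, and all groups share that step. For the next 36 h they were kept in 1 of 4 media: culture supernatant of the mouse melanoma line B16F10 with methionine added, called supplemented supernatant; the supernatant as it was; fresh medium lacking methionine, called methionine-free fresh medium; or fresh medium with methionine, called complete fresh medium. Each medium had 4 libraries of total RNA, 16 in all. Below, with methionine means supplemented supernatant and complete fresh medium. Without methionine means methionine-free fresh medium and the supernatant to which none was added, whose own methionine content the labels do not give. The labels give neither the methionine concentration nor the sterol or serum content of any medium, and they leave unsaid whether replicate libraries are from separate animals or cultures, so p-values measure only the spread between these libraries, which may be technical.

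Recovered depth was 25.8 to 42.3 M reads per library. Mat2a, which encodes the enzyme that turns methionine into S-adenosylmethionine and is known to rise when methionine is short, served as a check of the media: it had 34711, 36002, 35866 and 35085 depth-normalized reads in methionine-free fresh medium, against 6599, 6652, 6578 and 6716 in complete fresh medium. It had 11236, 11092, 11488 and 11936 in supplemented supernatant, against 36169.5, 35856, 36007 and 35008 in supernatant. The groups did not overlap in either pair, and the libraries of supernatant overlapped those of methionine-free fresh medium. The 2 media with methionine were not alike: Mat2a was higher in supplemented supernatant than in complete fresh medium (log2 0.78 ± 0.027, SE, limma adjusted p = 2.2e-22). The 5 CD8 T cell markers (Cd3d, Cd3e, Cd3g, Cd8a, Cd8b1) were all detected in every library and summed to 87787 to 93978 depth-normalized reads in supplemented supernatant, 77811 to 78972 in supernatant, 67237 to 68587 in methionine-free fresh medium and 81950.5 to 85403 in complete fresh medium. Within this sum, Cd3g averaged 4931 ± 90.9 in methionine-free and 15789 ± 484 in complete fresh medium (SD, n = 4 each). In the same media Cd3d averaged 7626 ± 213 and 12996 ± 197, and Cd3e 5850 ± 104 and 10427 ± 110. Cd8b1 averaged 18811 ± 198 and 19616 ± 781, while Cd8a was higher without methionine, at 30626.5 ± 350 against 24492 ± 356. Markers of other cells also moved with the medium. The 4 CD4 T cell markers summed to 3323 to 3609.5 in supplemented supernatant and 4101 to 4610.0 in supernatant. In methionine-free fresh medium the sum was 3976 to 4121 and in complete fresh medium 1976 to 2142, mostly through Zbtb7b. Foxp3 averaged 196 ± 18.5 in methionine-free and 50.8 ± 2.46 in complete fresh medium, and Cd40lg 38.5 ± 6.77 and 22.7 ± 3.39. Cd4 itself averaged 163 ± 17.5 and 182 ± 20.8 in the same media (SD, n = 4 each). The 5 B cell markers summed to 363 to 385 in supplemented supernatant, 731 to 858 in supernatant, 778 to 966 in methionine-free and 503 to 542 in complete fresh medium, most of it Cd79b, with Ms4a1 and Pax5 at 0 in some libraries. The 4 NK cell markers summed to 548 to 632 in supplemented supernatant, 289 to 315 in supernatant, 186 to 225 in methionine-free and 286 to 367 in complete fresh medium. The 6 myeloid markers summed to 158 to 220.3 in supplemented supernatant, 154 to 176 in supernatant, 142 to 211 in methionine-free and 343 to 407 in complete fresh medium, with Cd68 the largest part. The 4 melanoma markers summed to 22.5 to 37.0 in supplemented supernatant, 126 to 157 in supernatant, 176 to 189.8 in methionine-free and 25.7 to 34.0 in complete fresh medium, most of it Pmel, while the means of Mlana, Tyrp1 and Dct ran from 0 to 5.31 over the media. The part of these marker levels in the results below was not tested. In bulk RNA, fewer cells of a type and less RNA per cell cannot be told apart.

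Cholesterol is built from acetyl-CoA through mevalonate, isoprenoid diphosphates and squalene, and the same isoprenoids are used to prenylate proteins. When sterol in the endoplasmic reticulum is low, SCAP carries the SREBP factors to the Golgi, where they are cut and then switch on the genes of synthesis and uptake; INSIG proteins hold SCAP back when sterol is plentiful. Oxysterols and sterol intermediates act the other way through the LXR receptors, which switch on efflux pumps and a ubiquitin ligase for lipoprotein receptors, and in activated T cells the balance of both arms is known to accompany growth and division.

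The promoters below show the kind of upstream sequence that the members furthest apart carry, those of the 2 lowest and 2 highest fold changes on methionine removal that have an entry in the table of RefSeq promoters (GRCm38.p6); 26 of the 32 members have one, all but Fdps, Fdft1, Sqle, Stard4, Abcg1 and Npc1. Each is the 250 bases before the annotated start, 5′ to 3′ on the gene's strand. Capitals mark matches, on either strand, to the sterol regulatory element of SREBP (TCACNCCAC), the NF-Y box (CCAAT), the Sp1 box (GGGCGG) and the E-box (CACGTG), and no matches overlap in these windows. The window of Hmgcs1 lies at chr13:119690101-119690350 (plus strand), Mvk at chr5:114444019-114444268 (plus strand), Abca1 at chr4:53159896-53160145 (minus strand) and the first of 2 entries of Nr1h3 at chr2:91195117-91195366 (minus strand).
Hmgcs1: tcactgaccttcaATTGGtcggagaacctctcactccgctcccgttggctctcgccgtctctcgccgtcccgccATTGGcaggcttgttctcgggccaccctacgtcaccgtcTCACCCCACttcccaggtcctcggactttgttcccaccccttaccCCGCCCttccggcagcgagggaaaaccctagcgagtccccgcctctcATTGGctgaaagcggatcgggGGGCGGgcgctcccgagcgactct
Mvk: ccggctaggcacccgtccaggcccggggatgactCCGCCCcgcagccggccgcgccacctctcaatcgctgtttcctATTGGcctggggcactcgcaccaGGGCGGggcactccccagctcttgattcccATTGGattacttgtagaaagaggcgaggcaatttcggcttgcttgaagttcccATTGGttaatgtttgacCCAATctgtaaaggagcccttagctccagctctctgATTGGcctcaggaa
Abca1: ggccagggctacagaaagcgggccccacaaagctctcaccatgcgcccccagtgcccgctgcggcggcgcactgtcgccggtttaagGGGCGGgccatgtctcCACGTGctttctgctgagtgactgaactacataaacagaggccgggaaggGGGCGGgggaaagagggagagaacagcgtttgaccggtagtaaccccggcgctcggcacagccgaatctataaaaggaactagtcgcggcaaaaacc
Nr1h3: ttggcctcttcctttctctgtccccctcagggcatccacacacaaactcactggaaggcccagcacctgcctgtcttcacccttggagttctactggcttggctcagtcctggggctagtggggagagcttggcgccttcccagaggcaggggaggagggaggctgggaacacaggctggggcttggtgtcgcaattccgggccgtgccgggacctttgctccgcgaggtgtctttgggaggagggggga
Hmgcs1 holds 1 sterol regulatory element, 137 to 129 bases before the start, with 3 NF-Y boxes and 2 Sp1 boxes; Mvk holds 5 NF-Y boxes and 2 Sp1 boxes. Abca1 holds 2 Sp1 boxes and 1 E-box, and the Nr1h3 window holds none of the motifs. Hmgcs1 is the 1 member of 26 with the exact sterol regulatory element, which 1.22% of all 27025 genes with a promoter entry hold. NF-Y boxes lie in 14 of 15 enzyme promoters, 4 of 5 promoters of SREBP regulators and 3 of 6 of the LXR branch, against 40.8% of the 8902 tested genes in the table. Sp1 boxes lie in 13 of 15, 5 of 5 and 3 of 6 of these promoters, against 63.7% of tested genes. E-boxes lie in 5 of 26 promoters, against 9.90% of tested genes. The exact LXR element, a direct repeat recognized by nuclear receptors, lies in none of the 26 and in 4 of all 27025 genes. A match in these letters is a description and not a bound site.

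Most of the sterol genes were lower in methionine-free than in complete fresh medium. Of the 32 members, 25 were lower, where 42.3% of all tested genes were called lower, and 7 were higher, where 43.3% of all tested genes were called higher. The median log2 fold change of the members was -1.81, beside 0.0092 for all tested genes, and 21 of the 32 changed at least 2-fold, as did 3454 of the 12469 tested genes. By branch, 17 of 18 enzymes were lower (median -2.56), 4 of 5 SREBP regulators were lower (median -1.78), and the LXR and transport branch was split, with 5 higher and 4 lower (median 0.21). The 7 higher members were Ggps1, Scap, Abca1, Abcg1, Mylip, Npc1 and Nr1h3. No member's libraries overlapped between the 2 media. The share of all tested genes without overlap was not counted, so this describes the members alone. Their adjusted p (limma, Benjamini-Hochberg over 12469 genes) ran from 1.41e-37 for Fdps to 2.44e-07 for Ebp.

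Supernatant against complete fresh medium gave 25 members lower and 7 higher, where 42.5% and 43.0% of all tested genes were called lower and higher, with a median of -1.60, beside 0.0011 for all tested genes. This comparison shares the complete fresh libraries with the one above. It had 17 of 18 enzymes lower (median -2.24), 4 of 5 SREBP regulators lower (median -1.60) and 5 of 9 LXR and transport genes higher. The higher members were Ggps1 (0.69), Scap (0.46), Abca1 (1.83), Abcg1 (0.80), Mylip (0.30), Npc1 (0.24) and Nr1h3 (1.32). The libraries of Mylip overlapped between these 2 media. Supplemented against plain supernatant, which uses none of the fresh libraries, had 23 members higher, 6 lower and 3 without a call, where 41.8% of all tested genes were called in each direction. The median of the members was 1.10, beside -0.0041 for all tested genes. By branch, 16 of 18 enzymes were higher (median 1.42), 3 of 5 SREBP regulators were higher and 1 was lower, and 4 of the 9 LXR and transport genes were higher and 4 lower. Depth-normalized totals came to 32.7 to 33.2 M in libraries without added methionine and to 36.2 to 36.9 M in those with it. Scaling each library to its total moved the median of all tested genes by 0.17 on methionine removal, 0.15 for supernatant and -0.14 on methionine addition, so members whose call or direction turned are given with their value under that scaling. All 32 calls on removal and all 32 in supernatant against complete fresh medium kept their direction and side of the threshold under it.

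**Figure D1:**
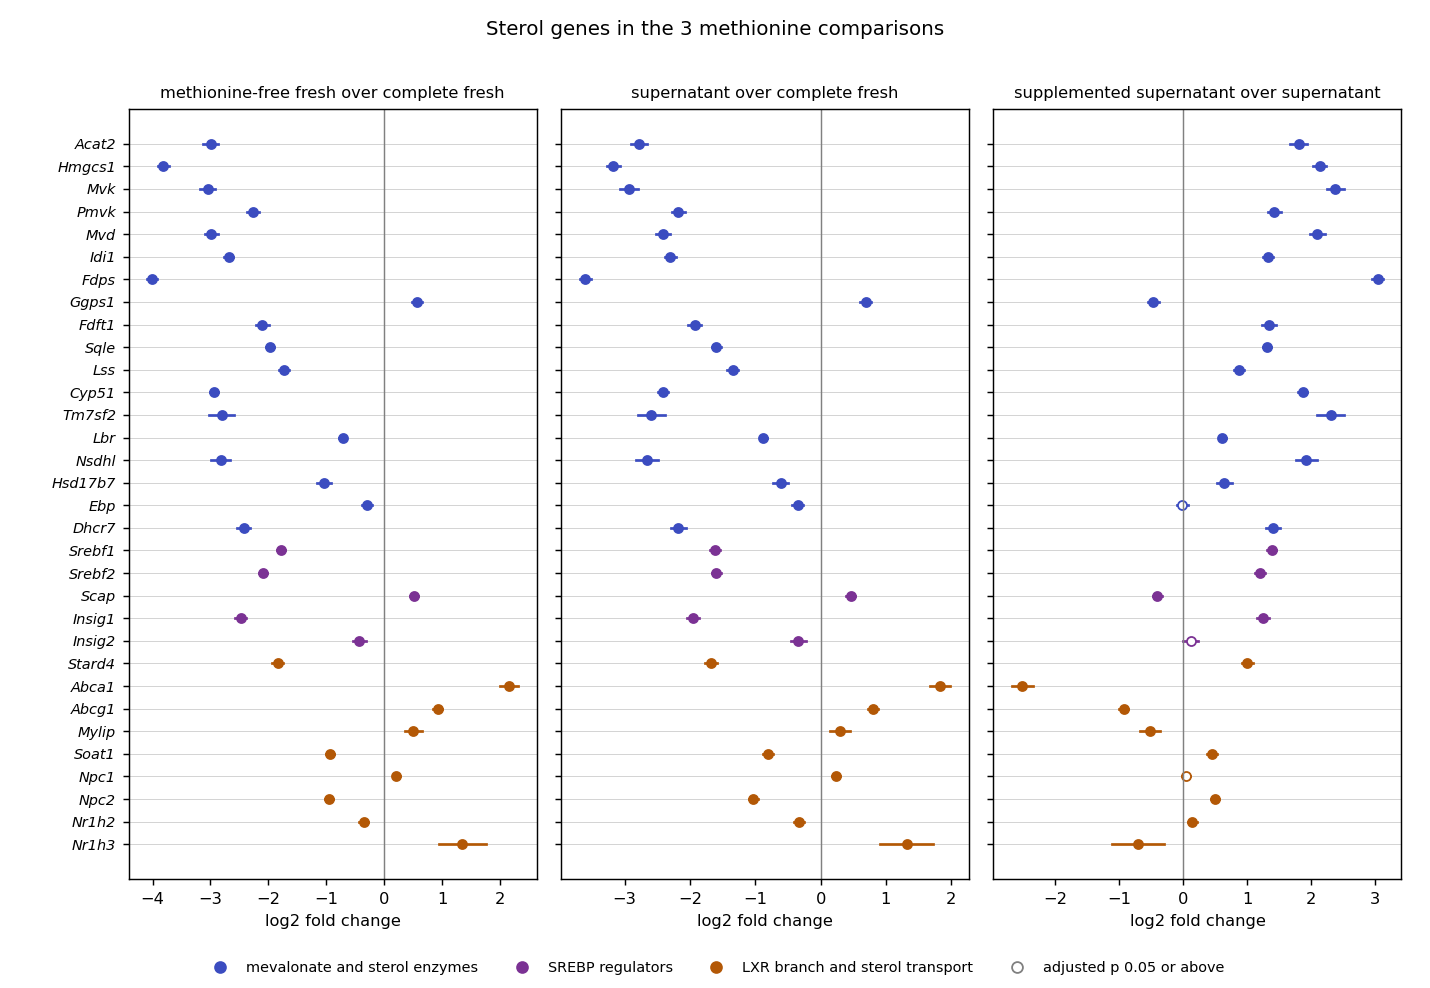
Log2 fold change (points, x axis) with its 95% confidence interval (bars) of the 32 sterol genes (rows) in methionine-free over complete fresh medium, supernatant over complete fresh medium and supplemented over plain supernatant, from limma; open points have an adjusted p of 0.05 or above. In the first panel 25 genes lie below 0, with Fdps at -4.01 lowest and Abca1 at 2.15 highest. In the third panel most genes lie on the other side of 0 and nearer to it.

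The early enzymes, from acetyl-CoA to farnesyl diphosphate, held the largest changes. Fdps (chr3:89093588-89101959; gene positions are those of GENCODE M21 on GRCm38) is the farnesyl diphosphate synthase at the branch point of sterols and protein prenylation. It had 821, 757, 781 and 819 depth-normalized reads in methionine-free fresh medium, against 12839.7, 12086, 13045 and 13217 in complete fresh medium. It had 8359, 9397, 8720.0 and 8077 in supplemented supernatant, against 1056, 1086, 1059 and 997 in supernatant. Every library with methionine stood above every library without added methionine, by several-fold. The log2 fold change was -4.01 ± 0.041 (SE) on methionine removal, place 33 from the lowest of 12469 genes, and 3.04 ± 0.041 on methionine addition to supernatant. In supernatant against complete fresh medium it was -3.61. Hmgcs1, the cytosolic HMG-CoA synthase, had 1297, 1256, 1287 and 1369 reads in methionine-free fresh medium, against 18088, 17016, 18211 and 20081 in complete fresh medium. In supplemented supernatant it had 8853, 10164, 8403 and 8318, against 2004, 2084, 2079 and 1962 in supernatant. The 4 groups did not overlap, and supplemented supernatant lay between complete fresh medium and the media without added methionine. Its log2 fold changes were -3.81 ± 0.047 on removal, -3.17 in supernatant against complete fresh medium and 2.13 ± 0.047 on addition.

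Mvk, mevalonate kinase, had 192, 195, 189 and 183 depth-normalized reads in methionine-free fresh medium, against 1611, 1541, 1688 and 1476 in complete fresh medium. It had 1078, 1162, 1126 and 931 in supplemented supernatant, against 199, 218, 199 and 205 in supernatant. Libraries with methionine were high and those without were low in both pairs, at log2 fold changes of -3.05 ± 0.066 on removal and 2.38 ± 0.066 on addition. The other early enzymes moved alike. Acat2, the cytosolic acetoacetyl-CoA thiolase that starts the pathway, averaged 335 ± 33.9 reads in methionine-free and 2661 ± 71.1 in complete fresh medium (SD, n = 4 each), a log2 fold change of -2.99. Pmvk, the kinase after Mvk, changed by -2.27 on removal and 1.42 on addition, and Mvd, the decarboxylase that makes isopentenyl diphosphate, by -2.98 and 2.10. Idi1, the isomerase of isopentenyl diphosphate, changed by -2.69 and 1.33, and Acat2 by 1.80 on addition. None of the 7 genes overlapped between groups in either comparison, a trait not counted over all tested genes. All 7 had limma adjusted p under 0.05 in both, lower on removal and higher on addition, where 42.3% and 41.8% of all tested genes were so called.

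Of the enzymes that commit isoprenoids to sterol, Fdft1, the squalene synthase, averaged 1032 ± 75.7 reads in methionine-free and 4426 ± 161 in complete fresh medium, with log2 fold changes of -2.10 on removal and 1.34 on addition. Sqle, the squalene epoxidase, averaged 1568 ± 34.2 and 6180.1 ± 176 in the same media (SD, n = 4 each) and changed by -1.98 and 1.31. Lss, which closes squalene epoxide to lanosterol, changed by -1.73 and 0.87. These changes were in the direction of the early enzymes and smaller than those of Fdps and Hmgcs1. After lanosterol, Cyp51, the lanosterol demethylase, changed by -2.94 on removal and 1.87 on addition, and Tm7sf2, a sterol reductase, by -2.81 and 2.30. Nsdhl, a sterol dehydrogenase of the demethylation complex, changed by -2.82 and 1.92, and Dhcr7, a reductase of the final steps to cholesterol, by -2.42 and 1.41. Hsd17b7, the ketosteroid reductase of that complex, moved less, by -1.04 and 0.65.

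Lbr and Ebp changed less than most other enzymes, and Ggps1 changed in the opposite direction. Lbr, the lamin B receptor, which is a nuclear envelope protein as well as a sterol reductase, had 12182, 11974, 11919 and 12441 depth-normalized reads in methionine-free fresh medium, against 19997, 20107, 20086 and 19671 in complete fresh medium. It had 16725, 17137, 15872 and 16832 in supplemented supernatant, against 11086, 10447, 11080.0 and 10868 in supernatant. The groups did not overlap, at log2 fold changes of -0.72 ± 0.028 on removal and 0.61 ± 0.028 on addition, while Tm7sf2, the other reductase that can carry out the same step, had changed by -2.81 and 2.30. Ebp, the sterol isomerase, had 1995, 1847, 1948 and 2113 reads in methionine-free fresh medium, against 2575, 2388, 2323 and 2396 in complete fresh medium. It had 1821, 1852, 2032 and 1822 in supplemented supernatant, against 1974, 1849, 1934 and 1829 in supernatant. The fresh media differed, with a log2 fold change of -0.29 ± 0.044, and the 2 supernatant groups overlapped, with a difference of -0.01 ± 0.044 (limma adjusted p = 0.8) that was called lower, at -0.14, only under scaling to the library total. In FPKM the removal value of Ebp was -0.36 with a limma adjusted p of 0.0507, and of 0.000498 with the replicate number as a block.

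Ggps1 (chr13:14050659-14063488), which makes the geranylgeranyl diphosphate used to prenylate proteins, went the other way. It had 1988, 1992, 1936 and 1853 depth-normalized reads in methionine-free fresh medium, against 1374, 1307, 1232 and 1349 in complete fresh medium. It had 1487, 1561, 1519.7 and 1578 in supplemented supernatant, against 2102, 2202, 2109.6 and 2075 in supernatant. The libraries without added methionine were the higher ones in both pairs, without overlap, at log2 fold changes of 0.56 ± 0.04 on removal, 0.69 in supernatant against complete fresh medium and -0.47 ± 0.04 on addition. The addition value in FPKM was -0.39 with a limma adjusted p of 0.185, and of 0.000796 with the replicate number as a block. Ggps1 shares exon bases with Arid4b in the GENCODE M21 annotation of GRCm38, as do Fdps with Gm43738, Fdft1 with Ctsb, Cyp51 with Akap9, Tm7sf2 with Vps51, Lbr with Dnah14, Srebf1 with Rai1 and Npc1 with Rmc1. The strand used in counting is not stated, so reads of these pairs cannot be told apart.

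On the length-scaled FPKM, where genes can be set side by side, Fdps was the highest enzyme in complete fresh medium at 337 ± 53.2 FPKM and Lbr the next at 176 ± 25.4 (SD, n = 4 each), with no overlap between their libraries. Hmgcs1 followed at 152 ± 30.6, and its libraries overlapped those of Lbr. In methionine-free fresh medium Lbr was the highest at 106 ± 13 FPKM, ahead of Ebp at 30.3 ± 4.86, Ggps1 at 24.7 ± 5.43 and Fdps at 19.8 ± 3.51. The ranges of Ebp and Ggps1 overlapped, as did those of Ggps1 and Fdps. At the other end, Tm7sf2 was lowest in methionine-free fresh medium at 1.8 ± 0.567 FPKM, below Hsd17b7 at 2.96 ± 0.251. In complete fresh medium the order of these 2 genes was turned round, with Tm7sf2 at 13.9 ± 3.24 and Hsd17b7 at 6.04 ± 0.682, and their libraries did not overlap in either medium.

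**Figure D2:**
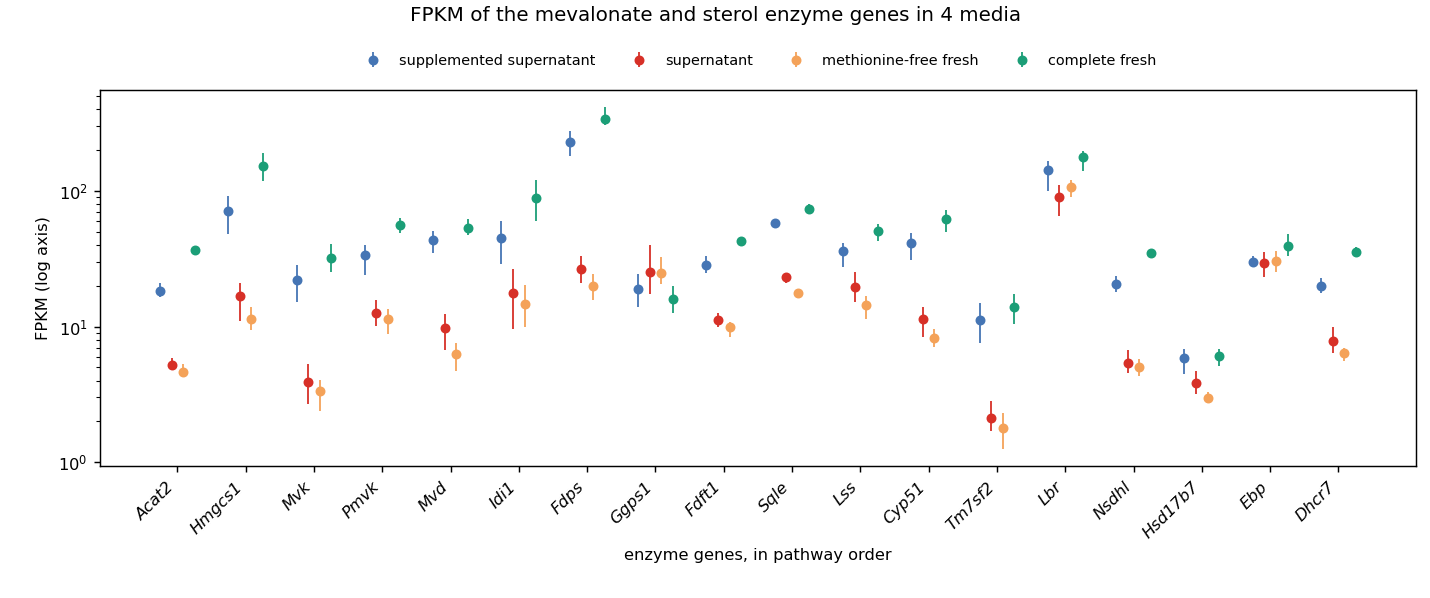
FPKM on a log axis (y axis) of the 18 enzyme genes in pathway order (x axis) in 4 media; points are means of 4 libraries and bars run from the lowest to the highest library. Most enzymes form a low pair (supernatant and methionine-free fresh medium) and a high pair (supplemented supernatant and complete fresh medium), while Ggps1, at 24.7 ± 5.43 FPKM in methionine-free and 16.1 ± 2.95 in complete fresh medium, shows the opposite order.

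Of the SREBP regulators, both transcription factor genes were lower without methionine. Srebf2, the factor that mainly drives sterol genes, had 5016, 4720.1, 4781 and 5083 depth-normalized reads in methionine-free fresh medium, against 20978, 21720.3, 21491 and 19443 in complete fresh medium. It had 16199, 16595, 15692 and 15049 in supplemented supernatant, against 6679, 7223, 6811 and 6905 in supernatant. No groups overlapped, and the log2 fold changes were -2.09 ± 0.035 on removal and 1.20 ± 0.035 on addition. Srebf1, which mainly drives fatty acid genes and is itself known as an LXR target, had 3404, 3480.3, 3490.4 and 3419 reads in methionine-free fresh medium, against 11912, 11999, 12460.4 and 10972 in complete fresh medium. It had 10129, 10258, 10353 and 9489 in supplemented supernatant, against 3805, 4075, 3708 and 3822 in supernatant. It was low without methionine in both pairs, at -1.78 ± 0.035 on removal and 1.38 ± 0.035 on addition.

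Insig1 (chr5:28071363-28078662), the anchor of SCAP that is itself an SREBP target, had 754, 819, 801 and 818 depth-normalized reads in methionine-free fresh medium, against 4427, 4321, 4473 and 4596 in complete fresh medium. It had 2762, 3023, 2549 and 2563 in supplemented supernatant, against 1139.9, 1187, 1196 and 1072 in supernatant. It held the largest change of this branch on removal, -2.48 ± 0.047, and had 1.24 ± 0.047 on addition, below that of Srebf1, with no overlap. Its homolog Insig2 had 808, 784, 828 and 822 reads in methionine-free fresh medium, against 1051, 1051, 1129.9 and 1149 in complete fresh medium. It had 932, 907, 965 and 935 in supplemented supernatant, against 897, 901, 924 and 741 in supernatant. The fresh media did not overlap, at -0.43 ± 0.056, whereas the supernatant groups did, at 0.12 ± 0.056 (limma adjusted p = 0.054). That difference was -0.016 under scaling to the library total. It passed the threshold without any 1 of supernatant replicates 0, 1 and 2 or supplemented supernatant replicate 1, at 0.130 to 0.149 (limma adjusted p = 0.0221 to 0.0482).

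Scap (chr9:110333288-110384950), the sterol sensor that escorts SREBP, was the 1 regulator that was higher without methionine. It had 6695, 6394, 6501 and 6683 depth-normalized reads in methionine-free fresh medium, against 4669.9, 4847, 4662 and 4199 in complete fresh medium. It had 4981, 4687, 4803 and 4678 in supplemented supernatant, against 6078, 6506, 6314 and 6374 in supernatant. The groups did not overlap in either pair, at 0.52 ± 0.035 on removal and -0.40 ± 0.035 on addition. In FPKM its values, 0.33 on removal and -0.30 on addition, had limma adjusted p of 0.256 and 0.302, and 0.000522 and 0.000954 with the replicate number as a block.

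**Figure D3:**
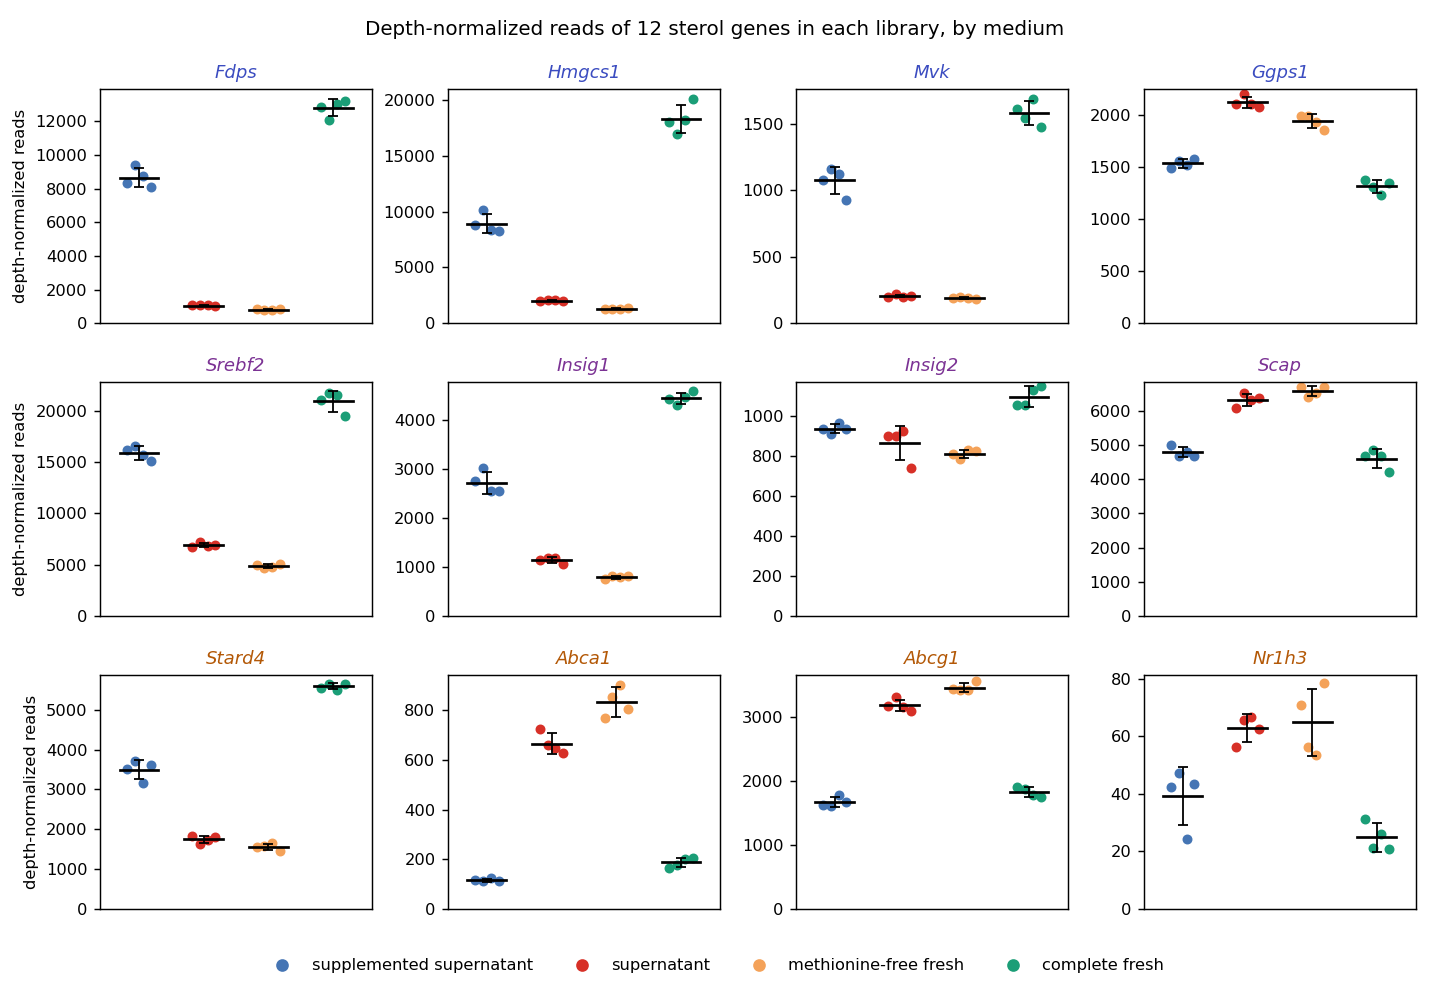
Depth-normalized reads (y axis, from 0) of 12 sterol genes in each library; within a panel the media stand from left to right as supplemented supernatant, supernatant, methionine-free fresh and complete fresh medium. Points are libraries, horizontal lines means and bars SD (n = 4 each). Fdps, Hmgcs1, Mvk, Srebf2, Insig1 and Stard4 are high in both media with methionine. Ggps1, Scap, Abca1, Abcg1 and Nr1h3 are high in both without added methionine.

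Among the LXR receptors and their targets, the efflux pumps were higher without methionine. Abca1, which moves cholesterol out of the cell to lipid-poor apolipoprotein, had 769, 855, 904 and 805 depth-normalized reads in methionine-free fresh medium, against 164, 178, 201 and 206 in complete fresh medium. It had 115, 111, 123 and 113 in supplemented supernatant, against 726, 659, 649.9 and 630.1 in supernatant. The libraries with methionine were the low ones, without overlap, and supplemented supernatant was the lowest of all. The log2 fold change of Abca1 was 2.15 ± 0.079 on removal, 1.83 in supernatant against complete fresh medium and -2.51 ± 0.079 on addition. Abcg1 (chr17:31057675-31117988), the pump that passes cholesterol to mature lipoprotein, had 3439.8, 3417, 3423 and 3565 reads in methionine-free fresh medium, against 1913, 1871, 1784 and 1749.9 in complete fresh medium. It had 1627, 1605, 1778 and 1675 in supplemented supernatant, against 3169, 3311, 3165 and 3101 in supernatant. It changed in the direction of Abca1, by 0.92 ± 0.038 on removal and -0.93 ± 0.038 on addition, with no overlap.

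Nr1h3, which encodes LXR alpha, had 70.7, 56.4, 53.7 and 78.5 depth-normalized reads in methionine-free fresh medium, against 31.3, 21.2, 26.1 and 20.9 in complete fresh medium. It had 42.3, 47.3, 24.5 and 43.3 in supplemented supernatant, against 56.2, 65.7, 66.8 and 62.7 in supernatant. These are low levels, at most 1.12 ± 0.392 FPKM, yet the groups did not overlap in either pair, at 1.35 ± 0.20 on removal and -0.70 ± 0.20 on addition. Nr1h2, which encodes LXR beta, the main form in lymphocytes, was lower without methionine, unlike Nr1h3: it had 2882, 2781, 2856 and 2833 reads in methionine-free fresh medium, against 3786, 3646, 3677 and 3410.0 in complete fresh medium. It had 3278, 3154, 3316 and 2976 in supplemented supernatant, against 2805, 3010.4, 2874 and 2817 in supernatant. The change was small, -0.35 ± 0.037 on removal and 0.14 ± 0.037 on addition, where the groups overlapped. Under scaling to the library total the addition value was 0.013 (limma adjusted p = 0.752), and in FPKM neither value was called by limma; with the replicate number as a block the removal value was (-0.52, limma adjusted p = 0.000538). Mylip, the ubiquitin ligase that marks lipoprotein receptors for breakdown, averaged 479 ± 19.1 reads in methionine-free and 339 ± 27.6 in complete fresh medium, and 291 ± 19.1 in supplemented and 417 ± 37.7 in plain supernatant (SD, n = 4 each). Its log2 fold change was 0.50 on removal and -0.52 on addition.

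Of the carriers and stores of sterol, Stard4, a cytosolic cholesterol carrier and known SREBP target, had 1562, 1575, 1651 and 1455 depth-normalized reads in methionine-free fresh medium, against 5559, 5657, 5500.2 and 5658 in complete fresh medium. It had 3515, 3714, 3154 and 3617 in supplemented supernatant, against 1819, 1634, 1725 and 1798 in supernatant. It moved as the enzymes did, by -1.84 ± 0.044 on removal and 1.003 ± 0.044 on addition, with no overlap. Npc2, which takes cholesterol up inside the lysosome, had 5439, 5402, 5519 and 5665 reads in methionine-free fresh medium, against 10578, 10187, 10792 and 11151 in complete fresh medium. It had 7385, 7459.8, 7786 and 6962 in supplemented supernatant, against 5193, 5262, 5164 and 5289.6 in supernatant. It was low without methionine in both pairs, at -0.95 ± 0.032 on removal and 0.50 ± 0.032 on addition.

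Soat1, which esterifies cholesterol for storage, had 1545, 1497, 1479 and 1498 depth-normalized reads in methionine-free fresh medium, against 2753, 2848, 2916 and 3004 in complete fresh medium. It had 2365, 2253, 2178 and 2196 in supplemented supernatant, against 1605, 1718, 1653 and 1612 in supernatant. Libraries without methionine were again the low ones, at -0.94 ± 0.038 on removal and 0.45 ± 0.038 on addition. Npc1, the lysosomal membrane partner of Npc2, averaged 5357 ± 151 reads in methionine-free and 4634 ± 81.6 in complete fresh medium, and 5639.9 ± 145 in supplemented and 5468 ± 121 in plain supernatant (SD, n = 4 each). It was higher on removal by 0.21 ± 0.03, which in FPKM (0.16) had a limma adjusted p of 0.136, and of 0.0160 with the replicate number as a block. On addition its value was 0.04 (limma adjusted p = 0.165), and -0.087 under scaling to the library total (limma adjusted p = 0.00861), so that its direction in supernatant turned with the scaling.

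Most sterol genes were lower in supplemented supernatant than in complete fresh medium. In all, 27 of the 32 members were lower and 3 were higher, where 32.5% of all tested genes were called lower and 32.5% higher, and the median was -0.38, beside -0.0033 for all tested genes. Among enzymes, 16 of 18 were lower, from -1.04 ± 0.047 for Hmgcs1, -0.98 for Acat2 and -0.97 for Idi1 to -0.26 for Lbr, and Ggps1 was higher at 0.22. Of the regulators, Insig1 was lower at -0.71 and Srebf2 at -0.40. In the LXR and transport branch 7 of 9 were lower, Abca1 (-0.68) and Stard4 (-0.68) alike, while Npc1 (0.28) and Nr1h3 (0.62 ± 0.20) were higher. The libraries of Abcg1 and Nr1h3 overlapped between the 2 media. From FPKM, limma called 15 members lower and 0 higher, with 19 lower and 2 higher at an unadjusted p under 0.05, and 24 lower and 2 higher called with the replicate number as a block. On the recovered reads edgeR and DESeq2 each called 27 lower and 3 higher. The call was lost for Tm7sf2 without supplemented supernatant replicate 3 (-0.24, limma adjusted p = 0.0591) and for Mylip without complete fresh replicate 0 (-0.16, limma adjusted p = 0.0665).

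Supernatant and methionine-free fresh medium lay close together. Of the 32 members, 17 were higher in supernatant and 4 lower, where 14.0% of all tested genes were called higher and 12.9% lower. The median of the members was 0.16, beside 0.0026 for all tested genes. No member changed 2-fold, and of the 12469 tested genes only 57 did. The higher members were 12 enzymes, led by Hmgcs1 at 0.64 ± 0.047, Mvd at 0.57, Cyp51 at 0.52 and Hsd17b7 at 0.43; Insig1 (0.52), Srebf2 (0.49) and Srebf1 (0.16); and Stard4 (0.16) and Soat1 (0.13). The lower members were Abca1 at -0.32 ± 0.079, Mylip at -0.20, Lbr at -0.16 and Abcg1 at -0.12. Among the called members, the libraries of Acat2, Stard4 and Mylip overlapped between the media. From FPKM limma called 0 members higher and 0 lower, with 10 higher and 1 lower at an unadjusted p under 0.05, while on the recovered reads edgeR called 16 higher and 4 lower and DESeq2 16 and 3. With FPKM and the replicate number as a block 11 were called higher and 1 lower (limma). Single libraries carried several of these calls. The call was lost for Acat2 without methionine-free replicate 1 or supernatant replicate 0 (0.15 and 0.16), for Ggps1 without methionine-free replicate 3 or supernatant replicate 1 (0.11 each), and for Fdft1 without methionine-free replicate 0 or supernatant replicate 1 (0.12 and 0.13). It was lost for Abcg1 without replicate 3 of either medium (-0.11 each) and for Mylip without methionine-free replicate 0, 1 or 2 or supernatant replicate 1, 2 or 3 (-0.15 to -0.21). Without supernatant replicate 3, 2 members were called lower.

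**Figure D4:**
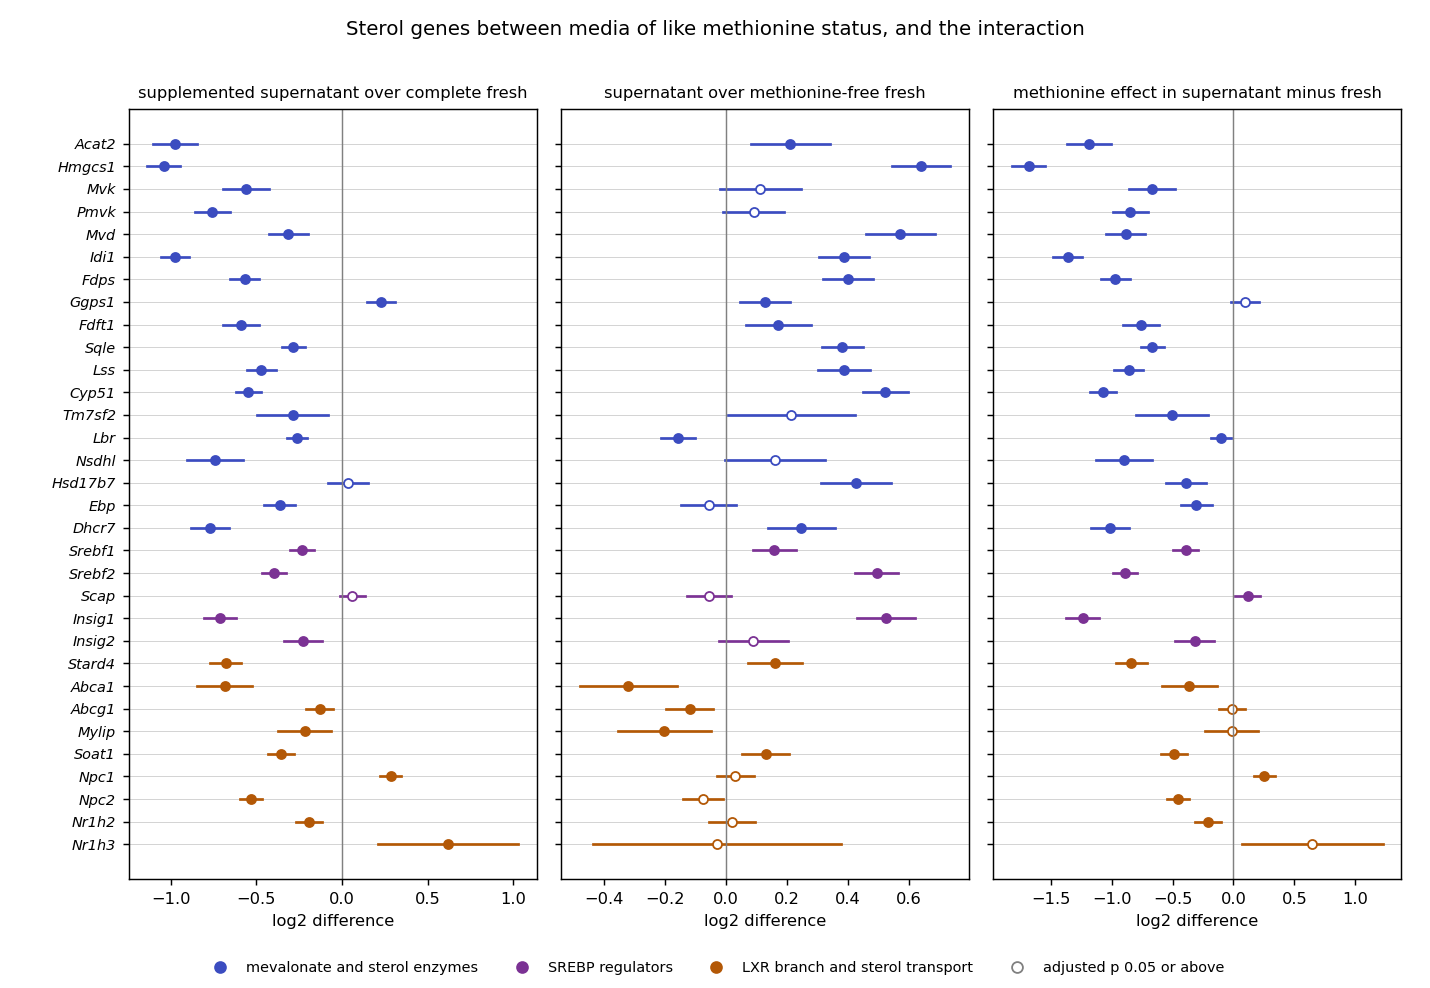
Log2 difference (points, x axis) with its 95% confidence interval (bars) of the 32 sterol genes (rows) in supplemented supernatant over complete fresh medium, in supernatant over methionine-free fresh medium, and in the interaction, the methionine effect in supernatant minus that in fresh medium; open points have a limma adjusted p of 0.05 or above. The x axes differ from panel to panel: Hmgcs1 is lowest in the first at -1.04 and highest in the second at 0.64.

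The difference with methionine was smaller in supernatant than in fresh medium for nearly all enzymes. Mat2a also differed between the 2 media with methionine, at 0.78 in supplemented supernatant against complete fresh medium. The part of unequal methionine in these differences was not tested. In the interaction, tested as the log2 difference with methionine in supernatant minus that in fresh medium, 26 members were lower and 2 higher, where 25.0% of all tested genes were called lower and 27.6% higher, and the median was -0.59, beside 0.012 for all tested genes. The lower ones were 17 of 18 enzymes, 4 of 5 SREBP regulators and 5 of 9 LXR and transport genes. A smaller difference gives a negative value for genes higher with methionine and a positive one for genes lower with it. Of all tested genes, 3454 changed at least 2-fold on removal and 2785 on addition, beside 21 and 18 of the 32 members. The share of all tested genes with a smaller difference in supernatant was not counted. Hmgcs1 had the largest value, -1.68 ± 0.067 (limma adjusted p = 4.75e-20), followed by Idi1 at -1.36, Insig1 at -1.24 and Acat2 at -1.19. Fdps, at -0.97, and Srebf2, at -0.89, differed by less. Lbr was called at -0.10, and lost the call under scaling to the library total (-0.077), under quantile normalization (-0.055), in edgeR (-0.096), and without methionine-free replicate 1 or 2, supernatant replicate 0 or 2 or supplemented supernatant replicate 2 (-0.082 to -0.099). For Abca1 the value of -0.36 ± 0.11 means a larger fall with methionine in supernatant than in fresh medium. Npc1 was higher at 0.25, and Scap at 0.12 (limma adjusted p = 0.0494), a call that was lost without methionine-free replicate 0, 2 or 3, complete fresh replicate 2 or 3, supernatant replicate 0, 2 or 3, or supplemented supernatant replicate 0 or 2, at 0.074 to 0.125. From FPKM limma called 13 members lower and 0 higher, with 18 lower and 0 higher at an unadjusted p under 0.05, and 23 lower and 1 higher called with the replicate number as a block. On the recovered reads edgeR called 25 lower and 3 higher, and DESeq2 26 and 3.

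**Figure D5:**
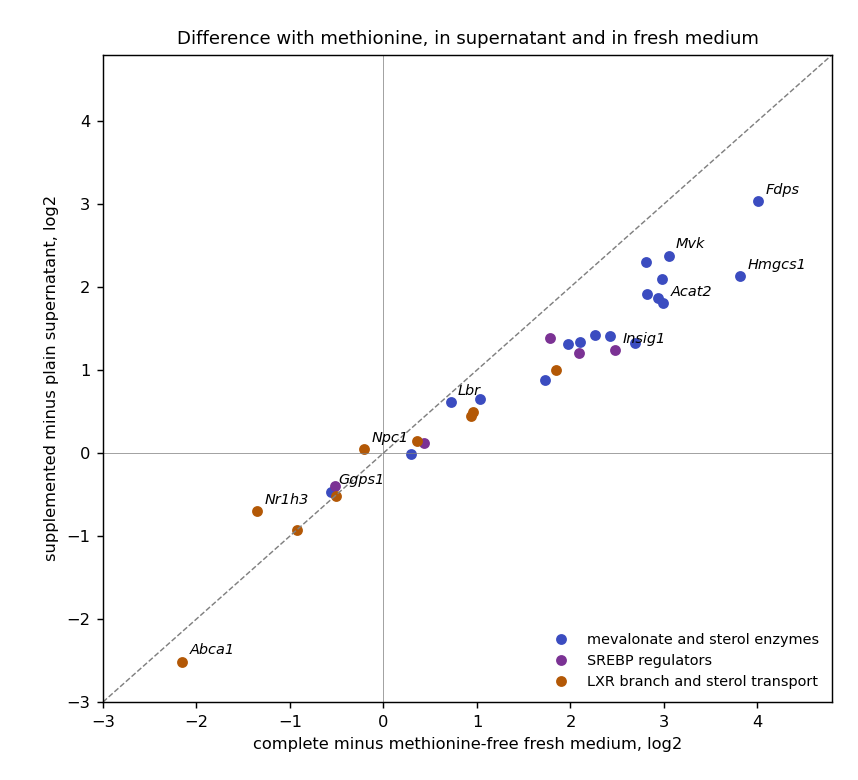
Log2 difference with methionine in supernatant (y axis, supplemented minus plain) against that in fresh medium (x axis, complete minus methionine-free) for the 32 sterol genes; the dashed line marks equal differences. Points of 30 of 32 genes have the same sign in both media and 29 lie nearer 0 in supernatant. The share of all tested genes nearer 0 there was not counted. Abca1, Abcg1 and Mylip lie further from 0 in supernatant, but the interaction was not called for Abcg1 (-0.011) and Mylip (-0.015).

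Other genes of the pathway were counted by list, against the shares of all tested genes that were called higher (43.3%) and lower (42.3%) on removal and in each direction on addition (41.8%). Of 13 further genes of sterol synthesis and uptake, 12 were lower on methionine removal, 0 higher and 1 not called (median -1.58), and on addition to supernatant 12 were higher and 1 lower. They include Vldlr, a lipoprotein receptor, at -3.86 ± 0.099 on removal and 3.57 ± 0.099 on addition. Of 6 further genes of SREBP processing and of the turnover of the pathway, 5 were higher on removal and 1 lower. Mbtps1, the protease that makes the first cut in SREBP, was higher by 0.75 on removal and lower on addition (-0.91). Rnf145, a sterol-responsive ubiquitin ligase and LXR target, was lower at -1.19 on removal and higher on addition (0.29).

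Of 7 further LXR targets and partners tested, 3 were higher on removal, 3 lower and 1 not called, shares near those of all tested genes (43.3% higher and 42.3% lower). Pltp, the phospholipid transfer protein, was lower at -2.33 and Lpcat3, a lysophospholipid acyltransferase, lower at -1.66, while Rxra, the partner receptor of LXR, was higher at 1.04. On addition to supernatant Pltp was higher at 2.84 and Lpcat3 at 1.10, and Rxra had a value of -0.10 that was not called. Of 15 tested genes of other sterol transport and conversion, 6 were higher on removal, 5 lower and 4 not called, also near those shares, led by Stard5, a cholesterol-binding protein (0.93), Lima1, an actin-binding protein (0.84), and Osbpl2, an oxysterol-binding protein homolog (0.59). Of 15 genes that use isoprenoids, 9 were higher on removal, 4 lower and 2 not called, beside the same 43.3% and 42.3% of all tested genes. Rabggtb, a subunit of the Rab prenyltransferase, was lower at -1.10, Srd5a3, of dolichol synthesis, lower at -0.69, and Zmpste24, the protease of prenylated lamin A, higher at 0.75. On addition to supernatant the same genes changed by 1.14, 1.27 and -0.70.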

How the data were processed

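RNA of 16 libraries, 4 per medium, was analysed. The submitters' processing notes name TopHat2 (2.0.13), Bowtie2 (2.2.1), FastQC (0.11.3), Cuffdiff (2.2.1) and Cufflinks, and the builds mm10 and GRCm38, without their roles; the counting tool, annotation and strand are not given in the sources used here. The first table that the authors deposited holds 1 signal per gene and library: divided by a step found for each library, 100% of the values came within 0.001 of a whole read. The second deposited table holds FPKM per library, scaled by the authors to transcript length and depth. The members, lists and tests were chosen with earlier results of these data known.

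The fit used log2 of the depth-normalized value plus 1, so folds of low genes are understated. It took the 12469 genes averaging 10 or more and 4 group means, in limma (3.58.1, under R 4.3.3) with its trend option. Calls needed a two-sided adjusted p below 0.05, by Benjamini-Hochberg across the whole table, and no minimum fold. The procedure was tested on simulated data. All 32 members are named, with every library's value for the 3 highest and 3 lowest of each branch on methionine removal and for members on the other side of 0 from the median of their branch; from each further list at most 3 called genes with the largest changes are named. Some genes picked by this rule are not reported here. Alternatives were edgeR 4.0.16 (quasi-likelihood, TMM) and DESeq2 1.42.0 on recovered reads of 15 libraries (the factor of methionine-free replicate 1 is too near 1 for its reads to be told from its values), pseudocounts of 0.5 and 5, other filters and scalings, FPKM as log2(FPKM + 0.1), a block for the replicate number, and each library left out. Between libraries of a medium the mean chi-square per gene was 2.65 to 9.01, above counting error alone.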

Additional observations from a re-analysis of the deposited data

Results flagged for a closer look

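Among the 128 sets of 4 libraries (32 genes in 4 media), 6 held a library whose gap to the nearest other exceeded Dixon's 95% critical value, where chance gives about 1 in 20 sets. In methionine-free fresh medium, replicate 0 was low for Mvd at 333.057 depth-normalized reads (others 363 to 366) and for Fdft1 at 919.487 (others 1054 to 1078), and replicate 3 was high for Abcg1 at 3565 (others 3417 to 3439.8). In supplemented supernatant, replicate 1 was high for Cyp51 at 7118 (others 6209 to 6319.6) and replicate 2 for Ebp at 2032 (others 1821 to 1852). In supernatant, replicate 3 was low for Insig2 at 741 (others 897 to 924).

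For 28 of the 32 members the difference with methionine was not the same in both media, by the test of the interaction (limma adjusted p below 0.05; log2, supernatant minus fresh medium). Among the enzymes the values were -1.68 for Hmgcs1, -1.36 for Idi1, -1.19 for Acat2, -1.07 for Cyp51, -1.01 for Dhcr7 and -0.97 for Fdps. They were -0.90 for Nsdhl, -0.88 for Mvd, -0.86 for Lss, -0.85 for Pmvk, -0.76 for Fdft1, -0.67 for Mvk and -0.67 for Sqle. The smallest were -0.50 for Tm7sf2, -0.39 for Hsd17b7, -0.31 for Ebp and -0.10 for Lbr. Among the regulators Insig1 had -1.24, Srebf2 -0.89, Srebf1 -0.39, Insig2 -0.32 and Scap 0.12. In the LXR and transport branch Stard4 had -0.84, Soat1 -0.49, Npc2 -0.45, Abca1 -0.36, Nr1h2 -0.21 and Npc1 0.25.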

How the results depend on the processing

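The counts of members called on methionine removal (7 higher, 25 lower) and in supernatant against complete fresh medium (7 and 25) stayed the same without any 1 library. Without 1 library the counts ran from 23 to 24 higher and 6 lower on methionine addition, 3 to 4 higher and 26 to 27 lower in supplemented supernatant against complete fresh medium, 16 to 18 higher and 2 to 4 lower in supernatant against methionine-free fresh medium, and 1 to 3 higher and 25 to 26 lower in the interaction. FPKM moved the last 3 comparisons most: 0 higher and 15 lower, 0 and 0, and 0 and 13. With FPKM and the replicate block the counts in these comparisons were 2 higher and 24 lower, 11 and 1, and 1 and 23, and all 32 calls on removal held, against 28 in FPKM without the block. The count higher in the interaction was also 1 with a pseudocount of 0.5, no filter, no trend or the replicate block. The cause was not tested. Among values that were not called, Ebp on methionine addition was 0.012 under quantile normalization, 0.055 in FPKM with and without the block, and -0.050 to 0.0074 without 1 library. Insig2 was -0.016 and Npc1 -0.087 under scaling to the library total, and Npc1 -0.022 under quantile normalization. Ggps1 in supernatant against methionine-free fresh medium was -0.010 in FPKM with and without the block. Of 175 member results, 172 were called. Of these calls, edgeR, DESeq2 and no trend each lost 2. A mean of at least 50, which leaves out Nr1h3, lost 0 among 171 results. FPKM lost 60 calls, 3 of them in supernatant against complete fresh medium, and turned the sign of 2 results. FPKM with the replicate block lost 17 calls, 0 of them in that comparison, and turned the sign of 2 results. Same-numbered libraries of different media correlated at -0.067 to 0.068 in their residuals, over 24 pairs, and at 0.081 to 0.487 in FPKM, with 22 of 24 over 0.1. The numbers were therefore not taken as pairs in the depth-normalized table, where the replicate block lost 1 of 172 calls. In FPKM the median was 0.214 for same-numbered pairs and -0.100 for differently numbered ones, of which 16 of 72 passed 0.1. Libraries of the same number thus shared part of their spread in FPKM, which the unblocked fit does not remove. Not every same-numbered pair passed 0.1, so the unblocked values are given with the blocked ones beside them.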
